A study of Canis lupus familiaris with 12 samples.

Results

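The genes described here are the enzymes that attach and remove ubiquitin and the subunits of the constitutive proteasome, in dog kidney epithelial cells with and without Yoda1. They were taken by symbol: names beginning with UBE2, UBE3, USP, PSMA to PSMG, CUL, FBX, TRIM or RNF, each followed by its number, with a mean of at least 0.5 TPM (a level scaled to transcript length and library size) over the 12 libraries. The interferon-inducible genes USP18, PSMB8 and PSMB9 were left out by this rule. Of 31121 rows in the tables, 13022 carried a symbol, 214 fitted the name pattern at any level and 182 met the level. RNF224 lay just inside that level at 0.572 TPM and TRIM72 just outside it at 0.474 TPM. The 182 rows comprised 23 ubiquitin-conjugating enzymes (E2), 3 UBE3 ligases, 3 cullins, 31 F-box proteins, 38 RNF proteins, 23 TRIM proteins, 23 USP proteins and 35 proteasome rows. The USP proteins are called deubiquitinases below by family name, and whether each is an active enzyme was not checked. A further 3 rows (PSMC3IP, PSME3IP1 and USP6NL) matched by name alone, and their proteins are neither enzymes of the pathway nor proteasome subunits. Enough counts for testing were present in 180 rows; RNF224 and the lower of the 2 UBE2N rows, both listed under 1 TPM, were not tested. UBE2N, PSMA1, PSMD8 and TRIM36 each stood on 2 gene identifiers, so that reads could have been split between copies and the values of these 4 symbols are uncertain.

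The cells were MDCK, a long-established epithelial line from dog kidney, grown in medium with serum. Yoda1 is a small molecule that opens the mechanically gated calcium-permeable channel PIEZO1, and the study's title sets its question as what PIEZO1 activation does to the closure of epithelial gaps and to adhesion genes. Group T1 received 25 µM Yoda1 for 12 h and group T2 for 24 h; C1 and C2 were the controls of 12 h and 24 h, and the labels used here name no vehicle for them. Each group held 3 libraries. Whether the 3 were grown as separate cultures is not stated, and a p-value here reflects only how far libraries of a group differed, which could be technical variation.

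Poly(A) RNA libraries held between 20709218 and 38889592 counts each. Of 14 kidney epithelial markers listed, 7 had a row with their symbol, and all 7 stood at 1 TPM or more. Such rows were found for 8 of 8 fibroblast, 4 of 6 endothelial and 4 of 7 leukocyte markers. These 3 lists each summed to at most 6.06 TPM in any library, with 1 gene of each reaching 1 TPM and 2 of 8 fibroblast genes at 0. Markers without a named row could not be judged. The summed level of the epithelial markers was 2224 to 2546 TPM in C1 against 1816 to 1997 TPM in T1, and 2454 to 2664 TPM in C2 against 1595 to 1683 TPM in T2. Of the 7 genes 1 was called lower at 12 h, where 3.97% of all genes were, and 5 at 24 h, where 9.61% were. With the replicate number as a block, a fit explained with the 12 h counts, 5 were lower at 12 h, where 15.8% of all genes were. The part of this shift of epithelial markers in the results below was not tested. The 3 C2 libraries differed from each other more than those of any other group (chi-square per gene 46.8 to 89.7, against 5.21 to 22.9 within C1, T1 and T2).

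Ubiquitin is a small protein that cells join to other proteins. An E1 enzyme activates it, an E2 carries it, and an E3 ligase picks the substrate; most RNF and TRIM proteins and the UBE3 enzymes act as E3s, whereas cullins are scaffolds that hold exchangeable substrate adaptors such as the F-box proteins. Deubiquitinases, of which the USP family is the largest, take ubiquitin off again. Chains of ubiquitin send many substrates to the proteasome, a barrel of alpha and beta rings (the 20S core) capped by a 19S particle that unfolds the substrate. In epithelia this system turns over junction proteins, cell cycle regulators and signalling receptors.

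By level, the classes were far apart. The median proteasome row stood at 180 TPM, the median E2 at 69.2 TPM, the cullins at 28.2 TPM, the UBE3 ligases at 27.6 TPM, the deubiquitinases at 27.2 TPM, RNF proteins at 24.0 TPM, F-box proteins at 18.9 TPM and TRIM proteins at 12.1 TPM. The highest single members were the E2 UBE2S at 648 TPM and the 20S subunit PSMB4 at 644 TPM. Within the other classes the highest were RNF10 (204 TPM), the proteasome-bound deubiquitinase USP14 (150.4 TPM), FBXO7 (89.9 TPM), the scaffold CUL1 (69.6 TPM), TRIM25 (56.4 TPM) and UBE3A (30.6 TPM). All members together held 1.24% to 1.26% of the counts of C1 libraries and 1.32% to 1.34% of T1, and 1.23% to 1.31% of C2 and 1.32% to 1.34% of T2. The E2 enzymes summed to 2599 ± 93.2 TPM in C1 and 2882 ± 52.2 in T1, and to 2542 ± 150.5 in C2 and 2908 ± 65.6 in T2 (SD, n = 3), with no overlap between treated and control libraries at either time. UBE2S alone stood at 557 ± 40.2 TPM in C1, 706 ± 27.5 in T1, 534 ± 60.7 in C2 and 795 ± 72.8 in T2 (SD, n = 3), and so made up more of the difference in the E2 sum than the other E2 enzymes together. On the log2(TPM + 1) scale the median difference of all genes was itself 0.0641 at 12 h and 0.0263 at 24 h. In the test described below 0 of 22 E2 enzymes were called at 12 h. The proteasome rows summed to 7978 ± 94.7 TPM in C1 and 8139 ± 94.1 in T1, and to 7684 ± 301.6 in C2 and 7747 ± 188.0 in T2, with overlap at both times.

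Few members were called at 12 h. Of the 180 tested, 9 passed an edgeR adjusted p of 0.05 over all 14169 genes: 6 were higher and 3 lower in T1 than in C1, or 5%, where 6.99% of all genes tested were called (3.01% higher, 3.97% lower). The 6 were the ligase UBE3A, the F-box proteins FBXO21 and FBXL18, the RING protein RNF113A and the deubiquitinases USP10 and USP13. The 3 that fell were TRIM8 and both subunits of the proteasome activator PA28, PSME1 and PSME2. In whole-culture RNA, a lower level can stand for fewer cells of a kind or for less RNA in each, which cannot be told apart. The median log2 fold change of the members was 0.0725, beside 0.00606 for all genes. In 48 members all 3 T1 libraries were above all 3 C1 libraries (16.4% of all genes) and in 11 all were below (16.3% of all genes).

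Libraries of C1 and T1 that shared a replicate number deviated together from their group means (r = 0.346, 0.448 and 0.126 over genes). C1 replicate 3 deviated more with T1 replicate 1 (0.185). The pairing was taken from these same counts and not from the labels, so values with the block are not independent support for a call. A fit to the 6 libraries of C1 and T1 alone, with the replicate number as a block, called 63 of 179 members tested at 12 h, 51 higher and 12 lower. That is 35.2%, where the same fit called 32.3% of all genes (16.5% higher, 15.8% lower). Without the block, those 6 libraries alone called 16 members and 12.6% of all genes. Values given with the block therefore differ from the 12-library fit in both libraries and model. The 12 h count of the fit over all 12 libraries also turned on single libraries. It was 1 to 5 members without any single library of C1 or of T2, or without T1 replicate 1 or 3, and 19 without C2 replicate 1 or 2. Over all genes the former fits called 1.16% to 6.1%, and the latter 11.6% and 11.7%. Only TRIM8 of the 9 was called in every one of the 12 fits that left out a library.

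At 24 h the count was larger. In the fit over all 12 libraries the share was again slightly below that of all genes, whereas with the block at 12 h it was slightly above. In T2, 28 of 180 members passed the same test, 17 higher and 11 lower than in C2, or 15.6%, where 18.6% of all genes were called (8.96% higher, 9.61% lower). The median log2 fold change was 0.0289 for the members and -0.0149 for all genes. In 40 members every T2 library lay above every C2 library (16.6% of all genes), and in 18 every one lay below (16.2% of all genes). Leaving out C2 replicate 3 brought the count to 14, and leaving out T2 replicate 2 or 3 brought it to 11. Over all genes these fits called 11.4%, 8.81% and 7.88%. Of the 28, 10 were called in all 12 fits without a library: UBE3A, RNF113A, TRIM8, UBE2S, UBE2L6, FBXO28, RNF145, RNF13, TRIM14 and USP36. With the replicate number as a block in the 6 libraries of C2 and T2, 2 members were called, TRIM8 and UBE2S, beside 2.28% of all genes. Same-numbered libraries did not deviate together at 24 h, and block values given below with single genes are those of 12 h unless stated.

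Both lists shared 7 members with the same direction, which is 77.8% of the 12 h list and 25% of the 24 h list. UBE3A, FBXO21, RNF113A and USP10 were higher at both times, and TRIM8, PSME1 and PSME2 lower. Over all genes 629 were called in the same direction at both times, or 63.5% of the 12 h list and 23.9% of the 24 h list.

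Set beside each other at 24 h, the calls divided by class as follows; no test between classes was made. Over all genes 8.96% were higher and 9.61% lower, 18.6% in all. The E2 enzymes had 4 higher and 1 lower of 22, the F-box proteins 4 higher and 1 lower of 31, the deubiquitinases 3 higher and 0 lower of 23, the RNF proteins 3 higher and 3 lower of 37, the TRIM proteins 0 higher and 3 lower of 23, and the proteasome 1 higher and 3 lower of 35. CUL1 among 3 cullins and UBE3A among 3 UBE3 ligases were higher. At 12 h the calls were 2 higher F-box proteins, 2 higher deubiquitinases, 1 higher RNF protein, UBE3A, 1 lower TRIM protein and 2 lower proteasome genes, with 0 E2 enzymes (5 of 22 at an unadjusted p under 0.05), where 6.99% of all genes were called. With the replicate block at 12 h, 11 F-box proteins were higher and 1 lower, 10 deubiquitinases higher and 0 lower, 9 RNF proteins higher and 3 lower, 6 TRIM proteins higher and 1 lower, 6 E2 enzymes higher and 2 lower, and 7 proteasome genes higher and 5 lower. In these 6 classes the block called 30.4% (TRIM) to 43.5% (deubiquitinases) of the members tested, beside 32.3% of all genes; at 24 h the same classes had 11.4% (proteasome) to 22.7% (E2) called, beside 18.6%.

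Class medians stayed small. At 12 h the median log2 fold change was 0.31 for the 3 UBE3 ligases, 0.16 for F-box proteins, 0.12 for deubiquitinases and for cullins, 0.10 for TRIM proteins, 0.07 for RNF proteins, 0.05 for E2 enzymes and 0.02 for the proteasome. At 24 h the medians of the 8 classes lay between -0.01 (RNF) and 0.06 (E2), and the order of the classes was not that of 12 h. The 12 h proteasome median turned to -0.0227 without C1 replicate 1 and to -0.0473 without T1 replicate 2, and the TRIM median to 0.00727 without C1 replicate 2. Among deubiquitinases 19 of 23 members had a positive value at 12 h and 12 of 23 at 24 h; for F-box proteins these counts were 22 and 20 of 31.

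**Figure D1:**
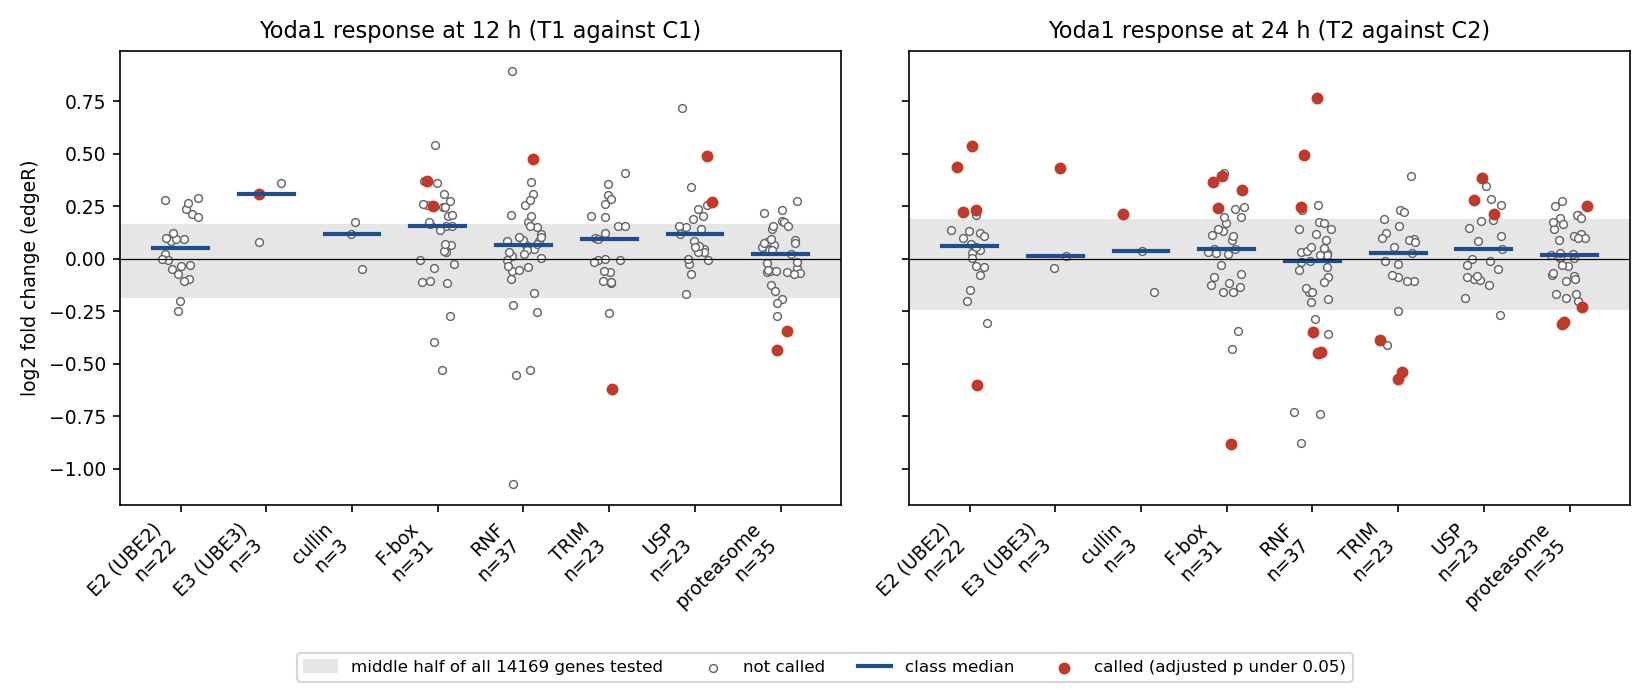
Log2 fold change (edgeR, vertical axis) of each tested member by class, at 12 h on the left and at 24 h on the right. Each point is 1 member, filled where it passed an adjusted p of 0.05, the short line is the class median and the grey band spans the lower to the upper quartile of all 14169 genes; the called TRIM proteins all lie below 0 and the called deubiquitinases all above it.

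How far the data could bound a change also differed by class. For 34 of 35 proteasome genes (97.1%) the 95% interval of the log2 fold change lay within a 1.5-fold change in either direction at 12 h, and for as many at 24 h. Over all genes this held for 62.2% at 12 h and 57.9% at 24 h. Among the TRIM proteins, the class of the lowest median level, it held for 69.6% at both times. The share over all members was 84.4% at 12 h and 83.3% at 24 h.

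Within the proteasome the values are given by part, and no test between parts was made. Genes of the 7 beta subunits all had negative values at 12 h (median -0.06) and 6 of 7 did at 24 h (median -0.11). Of these, 1 passed the test: PSMB5, the subunit with the chymotrypsin-like activity, at 24 h. PSMB5 stood at 173, 190.1 and 193 CPM (read counts scaled to library size by TMM, used here to follow 1 gene between groups) in C2 and 151, 165 and 157 CPM in T2. All T2 libraries were below all C2 libraries, with a difference of -0.23 ± 0.07 on the log2 scale (SE; edgeR adjusted p = 0.0336), and at 12 h the value was -0.02 ± 0.07 (adjusted p = 0.896). The call was lost without C2 replicate 2 or 3, T1 replicate 3 or any T2 library (adjusted p up to 0.114). With the replicate block, PSMB6, PSMB3 and PSMB1 were also called at 12 h, at -0.21 (adjusted p = 0.00358), -0.20 (0.00941) and -0.16 (0.0202).

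For the 6 alpha rows, 0 were called at either time and with the block at 12 h, and their medians were 0.00 at 12 h and -0.01 at 24 h. The 19S particle showed 0 calls among 4 ATPases and 9 non-ATPase rows at both times. With the block PSMC6, PSMD12 and PSMD4 of these 13 were called higher at 12 h, the first 2 at 0.17 (adjusted p = 0.0182) and 0.17 (0.0162). At 24 h 8 of the 9 non-ATPase rows were positive, with a median of 0.11. The largest at 24 h was PSMD7 at 0.25 ± 0.09 (adjusted p = 0.0627). PSMD4, the ubiquitin receptor of the particle, was 0.28 ± 0.09 at 12 h (adjusted p = 0.0724; 0.000874 with the block) and 0.21 ± 0.09 at 24 h (0.11); PSMC6, PSMD12, PSMD7 and PSMD4 were named after their values were seen.

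Assembly factors and regulators were mostly on the positive side, with 6 of 7 above 0 at 12 h (median 0.16) and 7 of 7 at 24 h (median 0.19), of which 1 passed the test. PSMG1, a chaperone that helps build the alpha ring, stood at 126, 117 and 119 CPM in C2 and 141, 148 and 143 CPM in T2. Every T2 library was the higher, and the difference was 0.25 ± 0.06 (adjusted p = 0.0117, or 0.0587 without T2 replicate 2). At 12 h it was 0.16 ± 0.06 (adjusted p = 0.138; 0.0252 with the block). With the block PSMD5, PSMD10 and PSME3 were called higher at 12 h as well, and no member of this group was called lower.

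PSME1 and PSME2 encode the PA28 cap, an interferon-inducible activator of the 20S core. PSME1 stood at 82.2, 99.6 and 85 CPM in C1 and 67.6, 75.7 and 67.2 CPM in T1, then at 84.5, 72.6 and 85.8 CPM in C2 and 66.3, 66.4 and 63.1 CPM in T2. PSME2 stood at 63, 74.2 and 65.3 CPM in C1 and 48.7, 52.5 and 48.8 CPM in T1, and at 69.2, 54.7 and 60.2 CPM in C2 and 46.9, 51.8 and 51 CPM in T2. At both times every treated library was below every control library for both genes. PSME1 was 1.27-fold lower at 12 h (log2 -0.34 ± 0.09, adjusted p = 0.041; 0.000215 with the block) and 1.24-fold lower at 24 h (-0.31 ± 0.09, adjusted p = 0.0328). PSME2 was 1.35-fold lower at 12 h (-0.43 ± 0.10, adjusted p = 0.0191; 5.37e-05 with the block) and 1.23-fold lower at 24 h (-0.30 ± 0.10, adjusted p = 0.0443). Single libraries decided several of these calls: PSME1 was called at 12 h in 4 of 12 fits without a library (lost without any C1 library, T1 replicate 1 or 3 or any T2 library) and at 24 h in 7 of 12 (lost without C2 replicate 1 or 3 or any T2 library). For PSME2 the counts were 8 of 12 (lost without C1 replicate 2 or 3 or T1 replicate 1 or 3) and 2 of 12 (lost without C1 replicate 1 or 3, C2 replicate 1 or 3, any T1 library or any T2 library), and the highest adjusted p in any of these fits was 0.166 for PSME1 and 0.132 for PSME2.

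**Figure D2:**
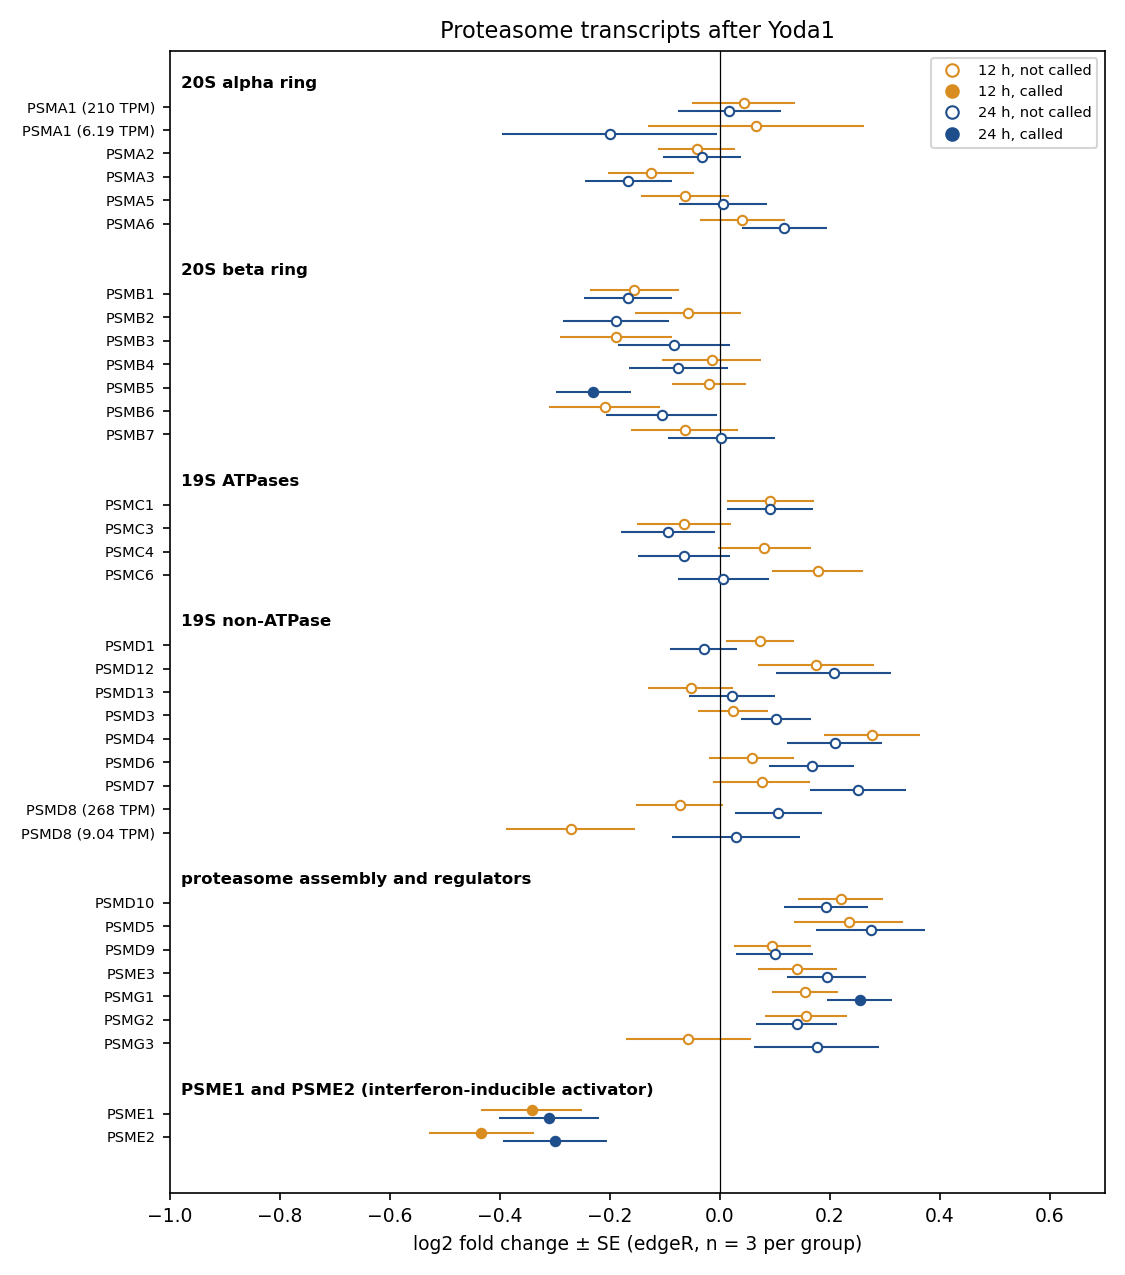
Log2 fold change ± SE (edgeR, horizontal axis, n = 3 per group) of the 35 proteasome rows grouped by part, at 12 h in orange and 24 h in blue, filled where the adjusted p was under 0.05. Beta subunits lie at or left of 0 at both times apart from PSMB7 at 24 h, assembly factors to the right apart from PSMG3 at 12 h, and PSME1 and PSME2 furthest left among the genes called at either time.

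Among the E2 enzymes the largest rise was in UBE2S, which lengthens ubiquitin chains for the anaphase-promoting complex, the ligase of mitotic exit. UBE2S stood at 227, 279 and 271 CPM in C2 and 327, 421 and 378 CPM in T2, with no overlap, and was 1.45-fold higher (0.54 ± 0.11, adjusted p = 0.00701). At 12 h it stood at 282, 305 and 246 CPM in C1 and 319.5, 365 and 319.9 CPM in T1 (0.27 ± 0.11, adjusted p = 0.177; 0.00155 with the block). UBE2C, which starts such chains and was named after its values were seen, was 0.21 ± 0.10 at 12 h (adjusted p = 0.234, or 0.0155 with the block). At 24 h UBE2C was 0.12 ± 0.10 (0.436). UBE2V1, a partner of UBE2N that lacks the catalytic cysteine, rose from 139, 125 and 130.0 CPM in C2 to 151, 156 and 157 CPM in T2 (0.23 ± 0.06, adjusted p = 0.0193). UBE2E2 rose from 12.6, 11.4 and 9.33 to 14.2, 15.6 and 15.4 CPM at 24 h (0.44 ± 0.12, adjusted p = 0.0283; at 12 h 0.28 ± 0.13, adjusted p = 0.201, or 0.0311 with the block). Both were lost without C2 replicate 3 or T2 replicate 2 or 3, with adjusted p up to 0.081 and 0.105. UBE2K, an E2 that builds chains on its own, was 0.22 ± 0.07 at 24 h (adjusted p = 0.0329); it is named because it completes the class and was chosen after its values were seen. Its call was lost without C2 replicate 2 or 3, T1 replicate 3 or any T2 library (up to 0.118).

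UBE2L6, the E2 of the interferon-induced modifier ISG15, was the E2 called lower at 24 h. Its libraries stood at 42.3, 53.5 and 49 CPM in C1, 39.3, 50.9 and 47.5 in T1, 55.2, 46.4 and 47.8 in C2 and 31.4, 32.5 and 34.7 in T2. The 12 h groups overlapped (-0.07 ± 0.11, adjusted p = 0.747), whereas at 24 h all treated libraries were lower, 1.52-fold (-0.60 ± 0.11, adjusted p = 0.00376). The E2 enzymes of NEDD8, the modifier that switches cullin ligases on, were not called at either time: UBE2M was -0.11 ± 0.08 and 0.01 ± 0.08 (adjusted p = 0.469 and 0.97), and UBE2F -0.20 ± 0.07 and -0.04 ± 0.07 (0.0855 and 0.743). With the block, the E2 enzymes called lower at 12 h were UBE2F (-0.20, adjusted p = 0.0137) and UBE2E3 (-0.25, 0.013), the latter named after its values were seen; UBE2L6 had an adjusted p of 0.321 in that fit.

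Of the ligases, UBE3A, a HECT enzyme known as the Angelman syndrome gene, rose at both times. Its libraries stood at 58.1, 50.6 and 55.6 CPM in C1 and 71.3, 63.4 and 69.1 CPM in T1, and at 59.6, 57.4 and 49.1 CPM in C2 and 76.6, 73.1 and 74.6 CPM in T2. Every treated library was above every control library at both times. The rise was 1.24-fold at 12 h (0.31 ± 0.09, adjusted p = 0.049; 0.000615 with the block) and 1.35-fold at 24 h (0.43 ± 0.09, adjusted p = 0.0049). At 12 h the call was lost without any C1 library, T1 replicate 1 or 3 or any T2 library (adjusted p up to 0.172).

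CUL1 is the scaffold that joins F-box adaptors to the ligase core. It stood at 104, 122 and 111 CPM in C2 and 126, 133 and 132 CPM in T2, a rise of 0.21 ± 0.07 (adjusted p = 0.0462), and was 0.17 ± 0.07 at 12 h (0.145; 0.0154 with the block). The 24 h call of CUL1 was the least stable of those named, since 1 of 12 fits without a library kept it, that without C2 replicate 2 (adjusted p up to 0.144 in the others). CUL2 and CUL9 were not called at either time.

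Among the F-box proteins FBXO21 rose at both times. Its libraries stood at 119.7, 100.5 and 117 CPM in C1 and 156, 133 and 147 CPM in T1, and at 124, 121 and 118 CPM in C2 and 159, 144 and 153 CPM in T2. The rise was 1.29-fold at 12 h (0.37 ± 0.08, adjusted p = 0.0209; 6.47e-05 with the block) and 1.26-fold at 24 h (0.33 ± 0.08, adjusted p = 0.0167). It was lost without C1 replicate 2 or 3 or T1 replicate 1 or 3 at 12 h and without C2 replicate 3 or T2 replicate 1 or 3 at 24 h (adjusted p up to 0.0972 and 0.0638). FBXL18 was called at 12 h only, at 0.25 ± 0.07 (adjusted p = 0.0483; 0.00339 with the block), against 0.13 ± 0.07 at 24 h (0.216), and 2 of 12 fits without a library kept it, those without C2 replicate 1 or 2; the difference between times was not called (adjusted p = 0.741).

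FBXO28 rose at 24 h from 57.3, 60.0 and 59 CPM in C2 to 82.2, 73.9 and 75.9 CPM in T2 (0.40 ± 0.08, adjusted p = 0.00733). FBXL6 rose from 45.6, 38.1 and 41.6 to 48.9, 55.8 and 57 CPM (0.37 ± 0.10, adjusted p = 0.023), and stood at -0.29 ± 0.10 in C2 relative to C1 (adjusted p = 0.294). FBXW9, a low member at 3.76 TPM, fell furthest of the called members, from 4.43, 3.43 and 5.09 CPM in C2 to 2.7, 1.83 and 2.48 CPM in T2 (-0.88 ± 0.23, adjusted p = 0.0199), after -0.53 ± 0.23 at 12 h (0.189; 0.0367 with the block). FBXL6 and FBXW9 were both lost without C2 replicate 3 or T2 replicate 2 or 3 (up to 0.101 and 0.0904). FBXO9 was 0.24 ± 0.08 at 24 h (adjusted p = 0.0476) and was called in 2 of 12 fits without a library, those without C2 replicate 1 or T1 replicate 2; it was named after its values were seen. With the block, the F-box genes called higher at 12 h beside FBXO21 and FBXL18 included FBXO28, FBXO3, FBXO5, FBXO33, FBXO42, FBXW11, FBXO38 and FBXL4.

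Among the RNF proteins RNF113A, a RING protein of the spliceosome, had the largest rise of any called member. It stood at 15.9, 17.1 and 15.8 CPM in C1 and 21.9, 25.2 and 20.8 CPM in T1, and at 15.3, 12.4 and 16.4 CPM in C2 and 21.1, 27.6 and 26.5 CPM in T2. It was 1.39-fold higher at 12 h (0.48 ± 0.13, adjusted p = 0.0445; 0.000323 with the block) and 1.7-fold higher at 24 h (0.77 ± 0.13, adjusted p = 0.00202), with no overlap at either time. The 12 h call was lost without any C1 library, any T1 library or T2 replicate 2 or 3 (adjusted p up to 0.128). RNF25 rose at 24 h from 38.2, 49.7 and 47 CPM in C2 to 55.3, 68.9 and 65.9 CPM in T2 (0.50 ± 0.12, adjusted p = 0.0112, up to 0.0573 without T2 replicate 2 or 3). RNF40, a ligase of histones, was 0.25 ± 0.07 at 24 h (adjusted p = 0.0301, up to 0.122 without C2 replicate 3 or any T2 library). At 12 h RNF25 was 0.36 ± 0.12 and RNF40 0.16 ± 0.07 (adjusted p = 0.0756 and 0.207; 0.000318 and 0.0441 with the block).

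Of the RNF proteins 3 fell at 24 h. RNF145, of the endoplasmic reticulum, stood at 90.7, 85.2 and 89.1 CPM in C2 and 67.4, 65 and 61.9 CPM in T2 (-0.45 ± 0.08, adjusted p = 0.00365; at 12 h -0.16 ± 0.08, adjusted p = 0.27, or 0.0461 with the block). RNF13, of endosomes and lysosomes, stood at 44.4, 56.8 and 52.5 and 39, 38.1 and 36 CPM (-0.44 ± 0.09, adjusted p = 0.00647). RNF170, which acts on the receptors that release calcium from the endoplasmic reticulum, stood at 24, 25.6 and 28.5 and 20.9, 21 and 19.4 CPM (-0.35 ± 0.09, adjusted p = 0.0197, up to 0.099 without C2 replicate 3 or T2 replicate 2 or 3). In all 3 every T2 library was below every C2 library. RNF170 was also 0.33 ± 0.09 in C2 relative to C1 (adjusted p = 0.203), with 20.6, 20.7 and 20.9 CPM in C1 and 21.6, 18.2 and 20.1 in T1. On the log2(TPM + 1) scale its 24 h difference was -0.20 and was not called.

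TRIM8, a RING ligase linked to NF-kB and STAT signalling, fell at both times. Its libraries stood at 84.4, 95.3 and 95.4 CPM in C1 and 54.1, 64.8 and 60.1 CPM in T1, and at 79.7, 93.2 and 78.3 CPM in C2 and 56.6, 55.2 and 57 CPM in T2. Treated and control libraries did not overlap at either time. TRIM8 was 1.54-fold lower at 12 h (-0.62 ± 0.09, adjusted p = 0.00266) and 1.49-fold lower at 24 h (-0.57 ± 0.09, adjusted p = 0.0014). Of the members called at both times it was the 1 whose 2 calls held in each of the 12 fits without a library and under the 9 other settings tried.

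TRIM14 and TRIM25 act in the sensing of viral RNA, TRIM25 as a ligase of the sensor RIG-I and TRIM14 as an adaptor at mitochondria. TRIM14 stood at 68, 62.4 and 65.2 CPM in C1, 62.9, 68.2 and 63.8 in T1, 58.1, 81.3 and 72.6 in C2 and 51.5, 46.6 and 47.7 in T2. It was -0.0048 ± 0.10 at 12 h (adjusted p = 0.985) and 1.45-fold lower at 24 h (-0.54 ± 0.10, adjusted p = 0.00419). TRIM25 stood at 166, 141 and 171 CPM in C1, 191, 175 and 184 in T1, 190.5, 227 and 178 in C2 and 153, 152 and 150.3 in T2. At 12 h every treated library of TRIM25 was above the controls (0.20 ± 0.10, adjusted p = 0.228; 0.00835 with the block), and at 24 h every one was below (-0.39 ± 0.10, adjusted p = 0.0149). C2 libraries of TRIM25 were 0.32 ± 0.10 above those of C1 (adjusted p = 0.239). The 24 h call was lost without T2 replicate 2 or 3 (up to 0.0647), in the 6 libraries alone, with the replicate block at 24 h and on the TPM scales. Of the other 20 TRIM proteins 0 were called at either time; with the block TRIM56, TRIM41, TRIM4, TRIM23 and TRIM21 were called higher at 12 h.

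**Figure D3:**
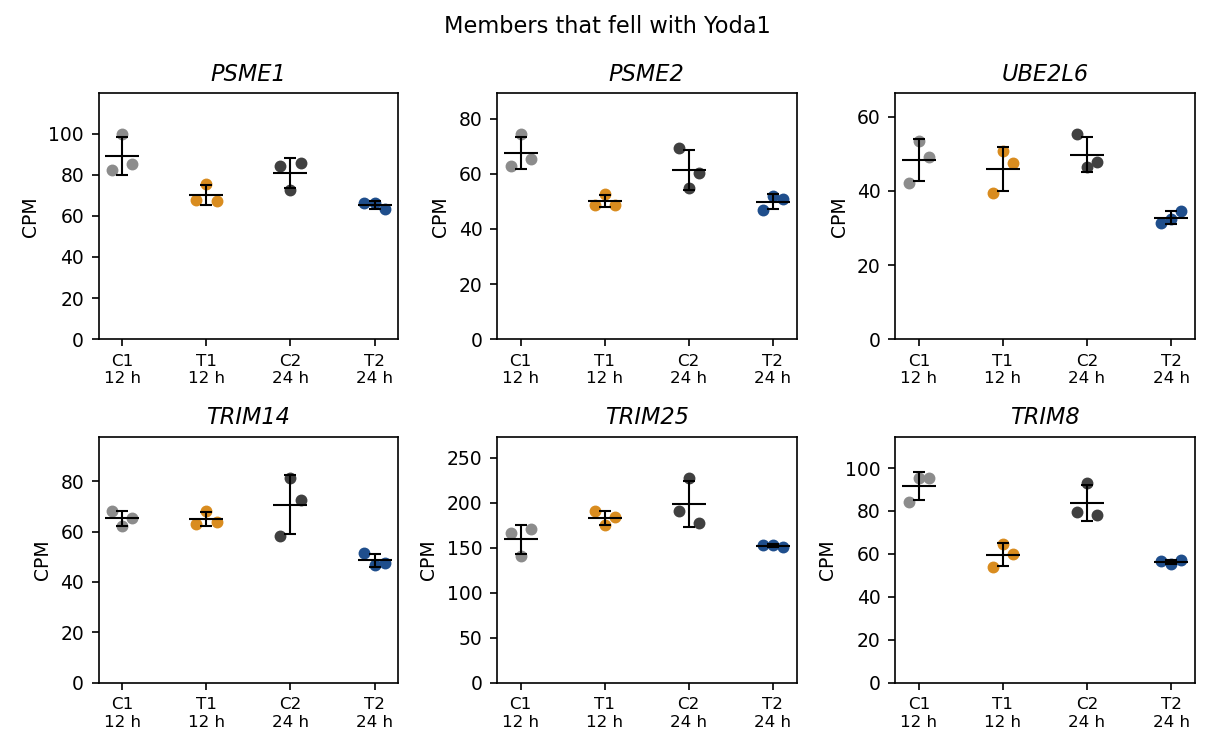
CPM (vertical axis, from 0) of 6 members that were lower in T2 than in C2, in each of the 12 libraries by group; bars are the mean ± SD of 3 libraries. PSME1, PSME2 and TRIM8 were lower at both times, whereas UBE2L6 and TRIM14 overlapped at 12 h and TRIM25 lay above its control at 12 h and below it at 24 h.

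Deubiquitinases were called in 1 direction. USP10, which acts on p53 and binds the stress granule protein G3BP, stood at 152, 136 and 145 CPM in C1 and 180.2, 165 and 176 CPM in T1, and at 141, 160.1 and 154 and 173, 174 and 181 CPM at 24 h. It was 0.27 ± 0.07 at 12 h (adjusted p = 0.0371; 0.000654 with the block) and 0.22 ± 0.07 at 24 h, where its adjusted p rounds to 0.05 and lay just under the threshold. USP36, a deubiquitinase of the nucleolus, had the smallest adjusted p of its class at 24 h, with 71.3, 78.4 and 75.3 CPM in C2 and 99.95, 95.3 and 98 CPM in T2 (0.38 ± 0.06, adjusted p = 0.00207). At 12 h USP36 was 0.19 ± 0.06 (0.0941; 0.016 with the block). USP14, bound to the 19S particle, stood at 199, 225 and 185 CPM in C2 and 249, 242 and 249.5 CPM in T2 (0.28 ± 0.09, adjusted p = 0.043), after 0.26 ± 0.09 at 12 h (0.102; 0.00104 with the block). USP13 was called at 12 h, at 8.35, 6.23 and 8.61 CPM in C1 and 11.5, 10.8 and 10.2 CPM in T1 (0.49 ± 0.13, adjusted p = 0.0387; 0.00533 with the block), and was 0.35 ± 0.13 at 24 h (0.0765). All but USP36 rested on single libraries: USP10 was called in 5 of 12 fits without a library at 12 h (lost without any C1 library, T1 replicate 1 or 3 or T2 replicate 2 or 3) and 3 of 12 at 24 h (lost without C1 replicate 1 or 3, C2 replicate 1 or 3, T1 replicate 1 or 3 or any T2 library). USP14 was called in 3 of 12 (lost without C1 replicate 1 or 3, C2 replicate 1 or 3, T1 replicate 1 or 3 or any T2 library) and USP13 in 3 of 12 (lost without any C1 library, any T1 library or any T2 library), with adjusted p up to 0.169 for USP10, 0.155 for USP14 and 0.149 for USP13.

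**Figure D4:**
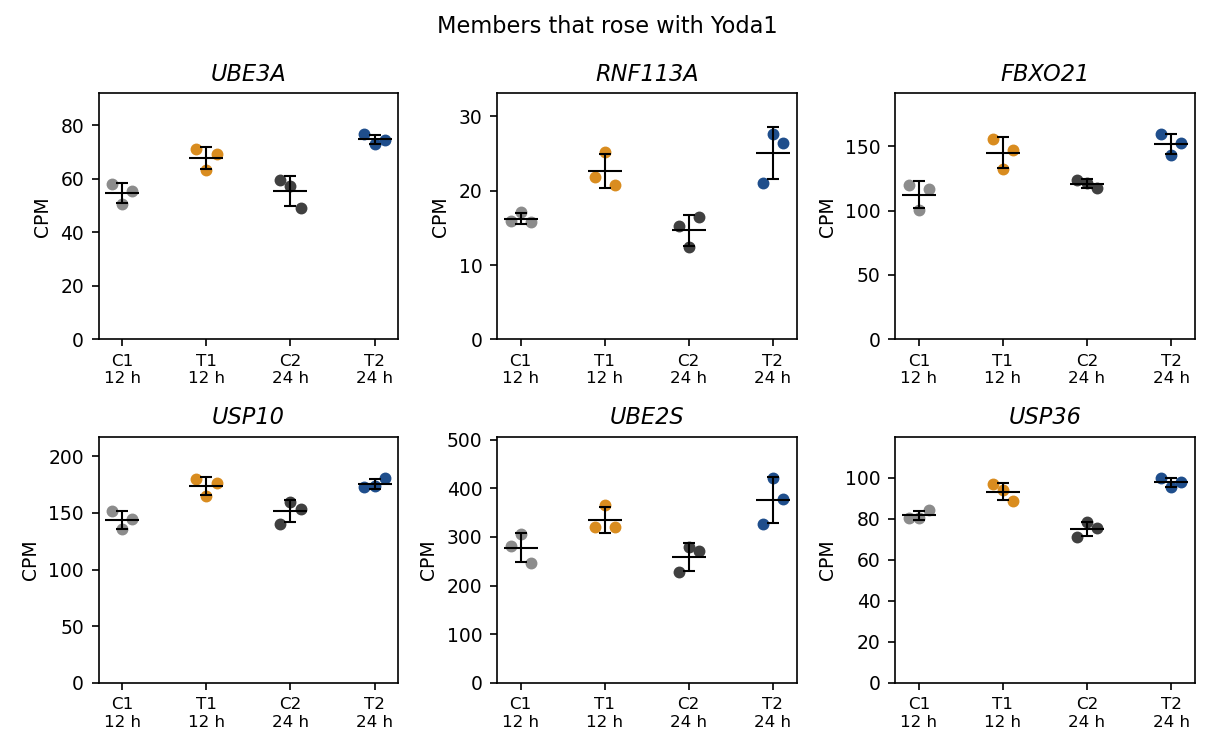
CPM (vertical axis, from 0) of 6 members that were higher in T2 than in C2, in each of the 12 libraries by group; bars are the mean ± SD of 3 libraries. UBE3A, RNF113A, FBXO21 and USP10 were called higher at both times, UBE2S and USP36 at 24 h.

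Grouped by the setting in which members are known to act, the 9 tested members linked to interferon included 5 of the 11 that fell at 24 h: UBE2L6, PSME1, PSME2, TRIM14 and TRIM25. Their median log2 fold change was 0.07 at 12 h, with 2 lower, and -0.30 at 24 h, with 5 lower and 0 higher of 9, where 9.61% of all genes were lower. With the block at 12 h, 3 were higher (TRIM56, TRIM25 and TRIM21) and 2 lower (PSME1 and PSME2), where 16.5% of all genes were higher and 15.8% lower. Their summed level was 554 ± 9.47 TPM in C1, 526 ± 4.93 in T1, 568 ± 20.9 in C2 and 469 ± 5.81 in T2 (SD, n = 3). The 3 genes that the rule left out are interferon-inducible too. PSMB8 was -0.22 ± 0.08 at 12 h (adjusted p = 0.113; 0.00477 with the block) and -0.48 ± 0.08 at 24 h (0.00172), and PSMB9 -0.39 ± 0.18 (0.199; 0.00432 with the block) and -0.42 ± 0.17 (0.11). USP18 was 0.49 ± 0.15 at 12 h (0.0644; 0.000207 with the block) and -0.92 ± 0.15 at 24 h (0.00162).

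Among the 9 tested members linked to the cell cycle, USP13 was called higher at 12 h (11.1%, beside 3.01% of all genes) and UBE2S and CUL1 at 24 h (22.2%, beside 8.96%), with medians of 0.21 and 0.18. Of these calls, that of UBE2S was kept in 12 of 12 fits without a library, that of USP13 in 3 and that of CUL1 in 1. The inhibitor of the anaphase-promoting complex FBXO5 was 0.36 ± 0.15 at 12 h (adjusted p = 0.178; 0.00411 with the block) and 0.41 ± 0.15 at 24 h (0.074). With the block at 12 h, 6 of the 9 were higher and 0 lower, where 16.5% of all genes were higher. Of the 10 members on the list for the endoplasmic reticulum 0 were called at either time, but that list does not hold RNF145 and RNF170, which fell at 24 h. With the block 2 of the 10 were higher and 1 lower at 12 h, or 30%, beside 32.3% of all genes. The 1 was RNF5, at -0.53 ± 0.18 at 12 h (adjusted p = 0.0883; 0.000254 with the block) and -0.11 ± 0.17 at 24 h (0.705); FBXO5 and RNF5 were named after their values were seen.

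Whether the 2 responses differed was tested as the response at 24 h minus that at 12 h. Of the 180 members 0 passed the edgeR test, where 0.155% of all genes did (0.0635% higher and 0.0917% lower). An unadjusted p under 0.05 was found for 13, DESeq2 called 1 and limma voom 0, and leaving out C2 replicate 1 gave 3 calls. Of all genes DESeq2 called 1.69% and limma voom 0.162%, and 2.52% were called without C2 replicate 1. The smallest adjusted p was that of TRIM25, with a difference of -0.58 (edgeR adjusted p = 0.117), followed by TRIM14 at -0.54 (adjusted p = 0.206). Among the genes the rule left out, USP18 did pass, with a difference of -1.41 ± 0.21 (adjusted p = 0.0282).

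Between the control groups, 0 members differed between C2 and C1 by the edgeR test, where 0.162% of all genes did (0.0353% higher and 0.127% lower). An unadjusted p under 0.05 was found for 11, and DESeq2 called 1 and limma voom 0, beside 1.95% and 0.148% of all genes. In 17 members all C2 libraries were above all C1 libraries (7.42% of all genes) and in 10 all were below (6.85% of all genes). The smallest adjusted p among the higher was 0.203, for RNF170, and among the lower 0.203, for UBE2M, whose libraries stood at 166, 162 and 145 CPM in C1 and 122, 125 and 139.7 CPM in C2. USP44 and TRIM56 were 0.61 ± 0.22 and 0.28 ± 0.11 (adjusted p = 0.303 and 0.342), and PSMB3 -0.20 ± 0.10 (0.478). Of the 35 proteasome rows 25 were negative between the control times, with a median of -0.08.

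Outside the members, other genes of the pathway were counted by list, with values below as log2 fold change ± SE and edgeR adjusted p, beside 6.99% of all genes called at 12 h and 18.6% at 24 h. Of 12 genes for ubiquitin, ubiquitin-like proteins and E1 enzymes, NAE1, a subunit of the NEDD8 E1, was higher at 24 h (0.39 ± 0.08, 0.00626). Of 25 partners of cullin ligases, SOCS3 was lower at 12 h (-0.51 ± 0.13, 0.0356). At 24 h the adaptor KLHL13 was higher (1.25 ± 0.23, 0.00298) and SKP1, which links F-box proteins to CUL1, and COPS8 were lower (-0.25 ± 0.07, 0.0318, and -0.23 ± 0.07, 0.0433). KLHL13 also differed between the controls, at -1.58 ± 0.23 in C2 relative to C1 (0.0316).

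Of 42 other ubiquitin ligases 1 was higher at 12 h, CBLL1 (0.39 ± 0.10, 0.0331), and at 24 h 4 were higher and 2 lower. These are 2.38% and 14.3% of the list, both below the share of all genes. The 24 h calls included DTX3L, an interferon-inducible ligase, which was lower (-1.02 ± 0.15, 0.00117), and CBLL1, which was higher (0.39 ± 0.10, 0.0165). ANAPC2, the cullin-like subunit of the anaphase-promoting complex, stands on 2 identifiers; 1 was called higher at 24 h (0.49, 0.00111) and the other was -0.05 (0.734), so its value is uncertain. Of 19 other deubiquitinases ZUP1 (0.35 ± 0.08, 0.0275) and OTUD5 (0.27 ± 0.07, 0.0356) were higher at 12 h and 0 were called at 24 h (edgeR). Of 20 genes for proteasome delivery, assembly and transcription 0 were called at 12 h and 1 at 24 h, UFD1, a cofactor of the unfoldase VCP, which was lower (-0.31 ± 0.10, 0.0484). With the replicate block at 12 h these 5 lists had 1, 6, 8, 5 and 2 genes higher and 4, 2, 4, 0 and 3 lower, in the order given and of 12, 25, 42, 19 and 19 tested. Their shares called were 41.7%, 32%, 28.6%, 26.3% and 26.3%, around the 32.3% of all genes in that fit.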

How the data were processed

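Poly(A) RNA of MDCK cells was sequenced in 12 libraries (C1, T1, C2 and T2, n = 3 each). The tools listed in the submitters' processing notes are STAR 2.7.10b, RSEM 1.3.3 and fastp 0.23.4, with no order of use. Build and annotation: not given in the sources used here. Estimated counts per gene, of which 91.1% were whole, were deposited by the authors, and so were TPM values of the same libraries. A sheet of sample names, also deposited by the authors, gave the control groups their times. All per-sample columns matched a sample, leaving 0 unused.

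Counts were rounded, filtered with filterByExpr, scaled by TMM and fitted with edgeR 4.0.16 (R 4.3.3), a robust quasi-likelihood test over all 12 libraries, with Benjamini-Hochberg adjustment over the 14169 genes tested; "called" means an adjusted p under 0.05. The common biological coefficient of variation was 13.3%. Standard errors were taken from the log2 fold change and its F statistic. CPM follow 1 gene between groups, and TPM compare genes. Unnamed rows, with 33.1% to 34.1% of each library's counts, entered the fit; members without a symbol were not analysed here. Identifiers did not match the reference table at hand, so no coordinates or sequences are given.

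Alternatives were DESeq2 1.42.0, limma 3.58.1 (voom, and log2 of TPM plus 1 or 0.1), RLE factors, library size alone, no filter, the 6 libraries of a comparison, a replicate block, and each library left out in turn. Block fits used the 6 libraries of a comparison, with their own filter and spread, or all 12 for the difference of responses. Same-numbered C1 and T1 libraries deviated together (r = 0.346, 0.448 and 0.126 over genes, with no p), so the pairing was used at 12 h, although C1 replicate 3 deviated more with T1 replicate 1 (0.185); at 24 h the values were 0.0549, -0.118 and -0.196, and the numbers were not taken as pairs. The pairing comes from these deviations, not from the labels. Scripts were tested on simulated counts.

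The members and lists were chosen with earlier results of these data known. Named were, per class and time, up to 3 called members in each direction by adjusted p, the 5 of smallest adjusted p in each direction between controls, the highest member of each class, those nearest the level limit, called members of the interferon, cell cycle and endoplasmic reticulum lists, and up to 3 called genes of each other list. Results for 2 genes are not reported here.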

Additional observations from a re-analysis of the deposited data

How the results depend on the processing

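The member counts depended on the setting more at 12 h than the 9 calls would show. At 12 h DESeq2 called 23 members (18 higher, 5 lower) and library size alone 20 (18 higher, 2 lower, so 90% higher against 66.7%). On the log2(TPM + 1) and log2(TPM + 0.1) scales 83.3% of the calls were higher. Without the filter 4 were called, in the 6 libraries of the comparison 16 (11 higher, 5 lower) and with the replicate block 63. Over all genes DESeq2 called 12%, library size alone 8.86%, no filter 3.79%, the 6 libraries 12.6% and the block 32.3%, against 6.99%. The log2(TPM + 1) and log2(TPM + 0.1) scales called 7.5% and 7.54% of all genes. At 24 h library size alone gave 71% higher against 60.7%, the 6 libraries 11 calls and the replicate block 2. Of all genes, library size alone called 19.6%, the 6 libraries 8.15% and the block 2.28% at 24 h, against 18.6%. Same-numbered libraries did not deviate together at 24 h. DESeq2 called 1 member between controls and 1 for the difference of responses, and the block 0 for each. Of all genes DESeq2 called 1.95% and 1.69%, and the block 0.00716% and 0%. Leaving out 1 library gave 1 to 19 calls at 12 h, 11 to 40 at 24 h, 0 to 3 for the difference and 0 between controls. Over all genes those fits called 1.16% to 11.7% at 12 h and 7.88% to 23.2% at 24 h. For the difference the share was 0% to 2.52%, and between controls 0.00694% to 1.96%. Among the 9 calls at 12 h, TRIM8, FBXO21 and PSME2 held under the 9 settings other than leaving out a library; UBE3A and FBXL18 were lost with limma voom, RLE factors, no filter and both TPM scales, PSME1 with library size alone, no filter and both TPM scales, RNF113A with limma voom, USP10 with no filter, and USP13 with no filter and in the 6 libraries. Of the 28 calls at 24 h, TRIM8 and UBE2S held under every setting, and all others were lost with the block. Of the settings that left out no library, the block alone lost UBE3A, FBXO21, RNF113A, UBE2L6, FBXO28, RNF145, RNF13, TRIM14 and USP36. The rest were also lost in the 6 libraries. No filter lost PSMB5, PSME2, USP10, RNF40, CUL1, UBE2K and FBXO9. Library size alone lost PSMB5 and PSME2, both TPM scales USP10, USP14, RNF170, TRIM25 and UBE2K, and limma voom USP10. None of the members named as called turned direction under any setting, and no scaling moved the median of all genes by over 0.1. The largest such median was 0.0796, with log2(TPM + 0.1) at 12 h, against 0.00606. The cause of these shifts was not tested.

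The class medians moved as follows. At 12 h the F-box median was 0.23 with log2(TPM + 1) and 0.246 with log2(TPM + 0.1). The E2 median was 0.0946 with library size alone and 0.116 and 0.119 on those TPM scales, and the RNF median 0.107, 0.14 and 0.142. The median of all genes rose as well, from 0.00606 to 0.0464 with library size alone and to 0.0641 and 0.0796 on the TPM scales. At 24 h the F-box median was 0.0878 with limma voom, 0.0818 with library size alone, 0.102 and 0.119 on the TPM scales and 0.0817 with the replicate block. All genes had medians of -0.00694, 0.0174, 0.0263, 0.0329 and -0.00602 in those settings, in that order, against -0.0149. Without 1 library the medians ranged from 0.00727 to 0.105 for TRIM at 12 h, and at 24 h from 0.0372 to 0.099 for F-box, 0.0565 to 0.0978 for E2, 0.0359 to 0.114 for USP and -0.0773 to 0.15 for UBE3. The RNF median at 24 h was above 0 under 5 of the other settings. Single libraries also turned the sign of class medians near 0: the proteasome median was -0.0227 without C1 replicate 1 and -0.0473 without T1 replicate 2 at 12 h and -0.00825 without T2 replicate 3 at 24 h, and at 24 h the TRIM median was -0.0325 without C2 replicate 1, the UBE3 median -0.0773 without C2 replicate 2 and -0.00693 without T2 replicate 1, and the RNF median 0.00945, 0.00527 and 0.00826 without C2 replicate 2, T2 replicate 1 and T2 replicate 2. At low levels depth limits what can be called, and the 2 untested members had too few counts for any fold change.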

Other observations

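The members on 2 gene identifiers differed in level between copies. PSMA1 had rows of 210.0 and 6.19 TPM, PSMD8 of 268 and 9.04 TPM, TRIM36 of 13.03 and 7.99 TPM and UBE2N of 69.2 and 0.654 TPM. None of the 7 tested copies was called at 12 h, at 24 h or between the controls. The PSMD2 row, which should stand for a core subunit of the 19S particle, was listed at 0.395 TPM, below the level set for members, although the other 19S rows, the lower PSMD8 copy aside, lay between 35.5 and 268 TPM.

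A pair of RNF members had large negative differences that were not called in the fit over all 12 libraries. RNF32, at 0.768 TPM, was -1.07 on the log2 scale at 12 h (edgeR adjusted p = 0.076; 0.0148, and called lower, with the block) and -0.88 at 24 h (adjusted p = 0.0775). RNF128, at 10.6 TPM, was -0.25 at 12 h (adjusted p = 0.649, or 0.293 and not called with the block) and -0.74 at 24 h (adjusted p = 0.0915). Both were chosen after their values were seen. In the other direction, the largest RNF value at 12 h was 0.893, also not called in the fit over all 12 libraries.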
